A study of Mus musculus with 6 samples.

Results

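The transcription factors that pattern and maintain the lung epithelium were examined in Igf1-/- and Igf1+/+ lungs of E18.5 mouse embryos. These factors were Nkx2-1, Foxa1, Foxa2, Gata6, Sox2, Sox9, Id2, Etv5 and Cebpa. They were taken as all probe sets to which the array annotation gives that symbol alone, which gave 14 probe sets for 9 of the 12393 genes with such a probe set. Of the 9 genes, 5 had 1 probe set. RNA of whole lungs was hybridised to 6 Affymetrix arrays, 3 for each genotype, and the deposited values are expression values on a log2 scale made with RMA, a method that corrects, normalizes and summarises the probes of each probe set. The Igf1-/- embryos were homozygous for a null allele of the gene of insulin-like growth factor 1 in every cell, on a C57BL/6J background. The Igf1+/+ embryos were wild type, and both came from matings of heterozygous parents. The study's methods state that E18.5 embryos were taken by C-section and helped to breathe before their lungs were dissected. The paper raises normal breathing of the wild-type embryos as a possible source of differences in immediate-early genes. That was not tested here. The labels mention pooled lungs and the study's methods 3 lungs per genotype, so whether an array stands for 1 embryo or a pool is not settled, and the p values measure the spread between these arrays.

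These factors act in a sequence during lung formation. Nkx2-1 marks the respiratory part of the foregut and later drives surfactant and secretory genes, and it works with the forkhead factors Foxa1 and Foxa2 and the zinc finger factor Gata6. Sox9, Id2 and the ETS factor Etv5 mark the distal tips of the branching epithelium, where Etv5 is a target of FGF signalling, whereas Sox2 marks the proximal airway epithelium. Cebpa acts late, when distal cells mature and form type II cells, which make surfactant.

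None of the 14 probe sets changed between genotypes at a limma adjusted p under 0.10 or under 0.20, and 3 had an unadjusted p under 0.05. Cebpa, Foxa1 and 1 of the 3 probe sets of Id2 were higher on all 3 Igf1-/- arrays than on any Igf1+/+ array, by a fold of 1.19 to 1.25. The other 11 probe sets overlapped between genotypes. Of all mouse probe sets, 10.8% were higher on all 3 Igf1-/- arrays without overlap, and 6.27% were higher with an unadjusted p under 0.05. Nkx2-1 and Sox2 differed more among the Igf1+/+ arrays than between genotypes, and both probe sets of Gata6 and that of Foxa2 had nearly equal means in the genotypes. For comparison, 126 of 22626 mouse probe sets, or 0.557%, had an adjusted p under 0.10, and 588, or 2.6%, an adjusted p under 0.20. Without Igf1+/+ replicate 3, an array described further on, none of the 14 passed 0.10 and 7 passed 0.20, while 2888 mouse probe sets, or 12.8%, passed 0.20 in that fit. Log2 fold changes are given as Igf1-/- minus Igf1+/+ means, and adjusted p values are those of limma over all mouse probe sets. Less RNA per cell and fewer cells that hold it cannot be told apart in RNA of whole lungs.

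**Figure D1:**
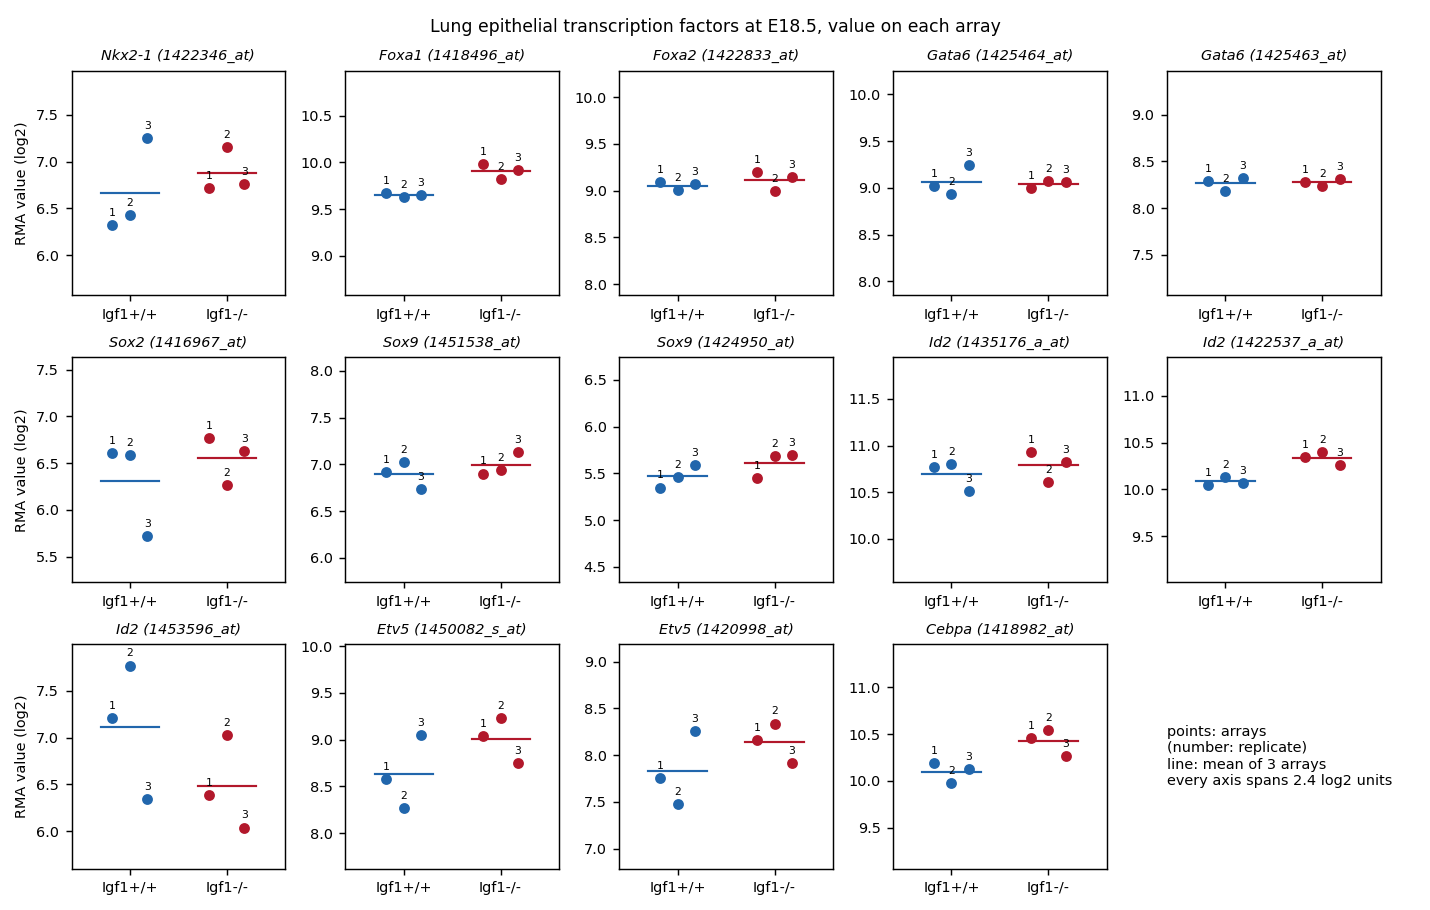
RMA value (log2, vertical axis, 2.4 units in every panel) of each of the 14 probe sets on the 3 Igf1+/+ arrays (blue) and the 3 Igf1-/- arrays (red), with the replicate number above each point and a line at the mean of 3 arrays. The genotypes do not overlap for Foxa1, Cebpa and the Id2 probe set 1422537_a_at, and Igf1+/+ replicate 3 lies away from the other Igf1+/+ arrays for Nkx2-1, Sox2 and the Etv5 probe sets.

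The lungs were checked first. The inactivated gene Igf1 was lower in Igf1-/- lungs at its 3 probe sets by 0.42 to 0.58 on the log2 scale, with adjusted p of 0.152 to 0.327 and genotypes that overlapped at 2 of them. Where these probes lie with respect to the inactivated exons was not stated, so they say little about the genotype of an array. Epithelial markers went both ways. Of 20 measured genes none rose or fell, 3 were higher and 3 lower at an unadjusted p under 0.05, and the genotypes did not overlap at 4 that were higher and 4 that were lower. Among 12393 named genes, 18 rose and 56 fell, and 873 were higher and 701 lower at an unadjusted p under 0.05. Without overlap, 1479 were higher and 848 lower. Krt18, a keratin of simple epithelia, was at 10.66, 10.64 and 10.72 in the Igf1-/- and 11.03, 11.01 and 11.04 in the Igf1+/+ lungs (adjusted p = 0.103), and Cldn7, a claudin, at 9.48, 9.55 and 9.38 against 8.86, 8.99 and 9.15 (adjusted p = 0.106). Both were named after their values were seen. The mean value of the 20 genes overlapped between genotypes, at 9.51 to 9.59 on the Igf1-/- arrays and 9.48 to 9.61 on the Igf1+/+ arrays. Krt19, another such keratin and the brightest of the list, was at 11.44 ± 0.12 in Igf1-/- and 11.53 ± 0.10 in Igf1+/+ lungs (SD, n = 3). Cldn3, a tight junction protein, was at 11.45 ± 0.20 and 11.20 ± 0.14. Genes known from neighbouring organs differed between single arrays, and the source of their RNA was not tested. Alb, made in the liver, was at 10.81 on Igf1-/- replicate 2 and at 6.10 to 8.67 on the other arrays. Nppa, a hormone gene of the heart atria, was at 7.29 on Igf1-/- replicate 3 and at 4.21 to 4.44 on the others. The Y-linked gene Eif2s3y was high on Igf1-/- replicate 1 (7.50) and Igf1+/+ replicate 3 (7.95), and at 3.46 to 3.53 on the others. Xist, transcribed from the inactive X chromosome, was at 3.50 on Igf1+/+ replicate 3, at 7.09 on Igf1-/- replicate 1 and at 12.10 to 12.22 on the other arrays.

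Promoter windows are shown for the 3 genes with a probe set at which the genotypes did not overlap. The windows were thus chosen from the expression values. Id2 lacked overlap at 1422537_a_at only, and the genotypes overlapped at its other probe sets. At the probe sets without overlap the adjusted p was 0.229 for Foxa1, 0.232 for Cebpa and 0.233 for Id2. Each window runs from 250 bases before to 50 bases from the RefSeq start on, in the sense of the gene, in the GRCm38.p6 build. Capitals mark matches, on either strand, to 8 motifs. The motif searched for forkhead factors was TGTTTAC, the one for NK2 homeodomain factors such as Nkx2-1 was CAAGTG, the one for GATA factors was AGATAA, and the one for SOX factors was ACAANG. The ETS motif searched was CCGGAA, the C/EBP motif was TTGCNNAA, and the core promoter motifs were TATAAA, where the TATA-binding protein sits, and CCAAT, bound by NF-Y. The windows are Foxa1 at chr12:57546062-57546361 on the minus strand, Id2 at chr12:25096043-25096342 on the minus strand and Cebpa at chr7:35119043-35119342 on the plus strand.
Foxa1: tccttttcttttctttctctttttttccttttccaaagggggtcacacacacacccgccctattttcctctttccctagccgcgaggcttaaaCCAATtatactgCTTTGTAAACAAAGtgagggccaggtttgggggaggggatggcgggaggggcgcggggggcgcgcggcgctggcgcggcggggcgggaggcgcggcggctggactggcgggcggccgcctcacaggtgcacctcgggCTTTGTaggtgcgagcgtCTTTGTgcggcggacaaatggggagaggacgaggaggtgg
Id2: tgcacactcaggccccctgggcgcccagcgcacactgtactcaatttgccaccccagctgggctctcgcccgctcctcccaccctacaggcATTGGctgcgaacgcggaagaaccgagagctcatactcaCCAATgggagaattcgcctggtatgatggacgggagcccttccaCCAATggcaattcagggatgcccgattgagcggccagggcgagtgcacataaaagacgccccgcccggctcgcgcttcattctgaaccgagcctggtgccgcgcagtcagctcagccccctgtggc
Cebpa: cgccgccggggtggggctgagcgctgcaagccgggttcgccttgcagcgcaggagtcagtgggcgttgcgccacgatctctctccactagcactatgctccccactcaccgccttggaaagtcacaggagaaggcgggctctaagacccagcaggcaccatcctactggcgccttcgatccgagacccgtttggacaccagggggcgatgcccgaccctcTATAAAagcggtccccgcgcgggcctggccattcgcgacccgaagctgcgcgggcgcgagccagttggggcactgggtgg

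In the Foxa1 window, the forkhead letters stand at position -141, counted from the start, and share bases with a pair of SOX matches at -145 and -137, while further SOX matches stand at -8 and 11. A match to TGTTTAC was held by 3.65% of all 32817 RefSeq windows and one to ACAANG by 41.3%. The Id2 window holds none of the 6 motifs named for the factors and has CCAAT letters at -159, -120 and -76, a motif held by 37.4% of windows. The Cebpa window holds TATAAA at -30, as do 13.6% of windows anywhere in their length, and no other of these motifs. The GC content was 62.3% for Foxa1, 63.3% for Id2 and 67.3% for Cebpa, against a median of 52.7% over all windows. Among 10 windows of 7 of the 9 genes, 1 of the pair of Etv5 windows also held forkhead letters, CCGGAA was in 1 Foxa2 window and the Sox2 window, AGATAA in 1 Foxa2 window, TTGCNNAA in the Sox2 window, and CAAGTG in none, beside shares of 14.9%, 11.2%, 10.8% and 13.6% over all windows. A match of letters is a description of the sequence and not a binding site. No window was used for Gata6 and Sox9.

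Foxa1 and Foxa2 open chromatin for other factors in endodermal organs and are partly redundant in lung. Foxa1 (1418496_at) was at 9.98, 9.82 and 9.92 in the Igf1-/- lungs and at 9.67, 9.63 and 9.66 in the Igf1+/+ lungs. The lowest Igf1-/- value lay 0.15 above the highest Igf1+/+ value, and the 3 Igf1+/+ arrays agreed closely (SD 0.018). The log2 fold change was 0.26 ± 0.07 (SE, n = 3 per genotype), a fold of 1.19 with a 95% interval of 1.06 to 1.34, and the adjusted p was 0.229. Foxa2 (1422833_at) was at 9.19, 9.00 and 9.14 in the Igf1-/- lungs and at 9.09, 9.00 and 9.07 in the Igf1+/+ lungs. Its values overlapped, with a log2 fold change of 0.06 ± 0.08, a 95% interval of -0.12 to 0.24 and an adjusted p of 0.792. Whether Foxa1 and Foxa2 differ in their response was not tested.

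Cebpa, the C/EBP factor of late distal maturation, was at 10.46, 10.54 and 10.27 in the Igf1-/- lungs and at 10.19, 9.97 and 10.13 in the Igf1+/+ lungs (1418982_at). The groups did not overlap, with a gap of 0.08 between the nearest arrays of the genotypes. The log2 fold change was 0.33 ± 0.10, a fold of 1.25 with a 95% interval of 1.08 to 1.46, and the adjusted p was 0.232. Liver also expresses Cebpa, Foxa1 and Foxa2. Igf1-/- replicate 2, with the highest Alb value, had the highest Cebpa value and the lowest Foxa1 and Foxa2 values of the Igf1-/- arrays. Without that array the log2 fold change of Cebpa was 0.27 (adjusted p = 0.446) and that of Foxa1 was 0.30 (adjusted p = 0.278). All 8 liver genes measured were higher in Igf1-/- lungs, with a median log2 fold change of 0.40, and none rose. The genotypes did not overlap for Tat and for Hnf4a, a nuclear receptor of liver and gut, which was at 6.71, 6.52 and 6.68 in the Igf1-/- and 6.33, 6.37 and 6.43 in the Igf1+/+ lungs (adjusted p = 0.243). The mean of the 8 genes overlapped, at 5.62 to 7.49 on the Igf1-/- and 5.30 to 6.30 on the Igf1+/+ arrays. The part of liver RNA in the values of these factors beyond that was not tested.

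Id2, an inhibitor of basic helix-loop-helix factors that marks distal tip progenitors, gave 3 different patterns at its 3 probe sets. At 1422537_a_at it was at 10.35, 10.40 and 10.26 in the Igf1-/- lungs and at 10.05, 10.14 and 10.07 in the Igf1+/+ lungs. The genotypes did not overlap there, with a gap of 0.13, a log2 fold change of 0.25 ± 0.07, a fold of 1.19 with a 95% interval of 1.06 to 1.34 and an adjusted p of 0.233. At the brightest probe set, 1435176_a_at, the values were 10.93, 10.60 and 10.83 in the Igf1-/- and 10.77, 10.81 and 10.51 in the Igf1+/+ lungs. There the genotypes overlapped, with a log2 fold change of 0.09 ± 0.11 and an adjusted p of 0.759. At 1453596_at, designed from another cDNA (AK013239), the values were 6.39, 7.03 and 6.04 in the Igf1-/- and 7.21, 7.77 and 6.35 in the Igf1+/+ lungs. This probe set ran the other way, with a log2 fold change of -0.62 ± 0.35, a 95% interval of -1.41 to 0.16 and an adjusted p of 0.491. Leaving out 1 array moved it from -0.29 without Igf1+/+ replicate 2 to -1.005 without Igf1+/+ replicate 3. It had the largest spread over the 6 arrays of all 14 probe sets (SD 0.65), and its mean lay at the 48.9th percentile of all mouse probe sets. The genes whose profile over the 6 arrays was nearest to it were Vldlr, a lipoprotein receptor (root mean square difference of centred values 0.351), Hnrnpu (0.367), a nuclear RNA-binding protein, and Kcne4 (0.369), a potassium channel subunit, of 7040 candidates.

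All 3 probe sets that did not overlap between genotypes were higher in Igf1-/- lungs, and all 3 had an unadjusted p under 0.05. Over all mouse probe sets, 10.8% did not overlap with the Igf1-/- arrays higher, and 6.27% were higher with an unadjusted p under 0.05. Of the 14 probe sets, 12 had a positive and 2 a negative log2 fold change, with a median of 0.18 beside 0.03 over all mouse probe sets. Taken as 1 brightest probe set per gene, 8 of 9 genes were higher, beside 7508 of 12393 named genes. The mean value of the 9 genes was 8.72 to 8.78 on the Igf1-/- and 8.52 to 8.60 on the Igf1+/+ arrays, which did not overlap. Of the gene lists described further on, those of ciliated, myeloid, oesophageal and thyroid or thymic genes also had means higher on all Igf1-/- arrays. The oesophageal and the thyroid or thymic lists were dim, with means below the array medians. The means of the differentiation genes and the Krüppel-like factors were lower on all Igf1-/- arrays. The 9 factors were chosen with earlier results of these data known. The smallest exact permutation p that 3 against 3 arrays can give is 0.1, so overlap alone cannot reach 0.05.

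**Figure D2:**
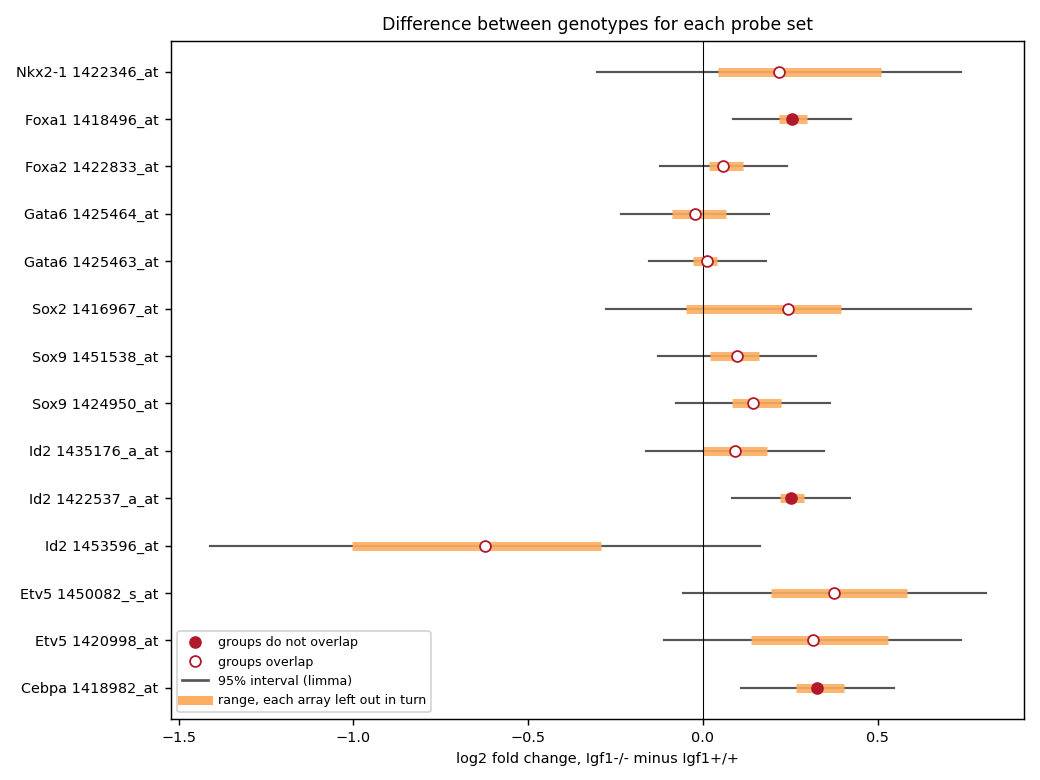
Log2 fold change (Igf1-/- minus Igf1+/+, horizontal axis) of each probe set with its 95% interval from limma (grey line) and its range when each of the 6 arrays was left out in turn (orange bar). Filled points are the 3 probe sets whose genotypes do not overlap, and the widest interval, -1.41 to 0.16, is that of the Id2 probe set 1453596_at.

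Nkx2-1, the homeodomain factor that defines lung identity in the foregut, was at 6.72, 7.16 and 6.77 in the Igf1-/- lungs and at 6.32, 6.43 and 7.25 in the Igf1+/+ lungs (1422346_at). Its mean over the 6 arrays was rather dim, at the 48.5th percentile of all mouse probe sets. Igf1+/+ replicate 3 was the highest of the 6 arrays and the other pair of Igf1+/+ arrays the lowest. The log2 fold change was 0.22 ± 0.23, with a 95% interval of -0.30 to 0.74 and an adjusted p of 0.722. Leaving out 1 array moved it between 0.04 and 0.51, and the highest value was the one without Igf1+/+ replicate 3 (adjusted p = 0.118).

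Gata6, a zinc finger factor of the lung endoderm that is also expressed in heart and smooth muscle, had nearly equal means in the genotypes. At 1425464_at its values were 9.00, 9.07 and 9.06 in the Igf1-/- and 9.02, 8.93 and 9.24 in the Igf1+/+ lungs. At 1425463_at, which comes from the same cDNA, they were 8.28, 8.24 and 8.31 in the Igf1-/- and 8.29, 8.18 and 8.32 in the Igf1+/+ lungs. The log2 fold changes were -0.02 ± 0.09 and 0.01 ± 0.07, and the 95% intervals of -0.23 to 0.19 and -0.16 to 0.18 bound any difference at these probe sets. Igf1-/- replicate 3, with the high Nppa value, lay inside the range of the Igf1+/+ arrays at both.

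Sox9 and Etv5 mark the distal tips together with Id2. Sox9 was at 6.90, 6.94 and 7.14 in the Igf1-/- and 6.92, 7.02 and 6.74 in the Igf1+/+ lungs at 1451538_at. At 1424950_at, from the same cDNA, it was at 5.45, 5.69 and 5.69 in the Igf1-/- and 5.35, 5.47 and 5.59 in the Igf1+/+ lungs. Both overlapped, with log2 fold changes of 0.10 ± 0.10 and 0.14 ± 0.10 and adjusted p of 0.716 and 0.568. Sox9 is also a factor of cartilage, and of 14 cartilage genes measured none rose and 1 fell, Hapln1, a link protein of cartilage matrix (log2 fold change -0.39, adjusted p = 0.091). The mean of these genes was 5.20 to 5.30 on the Igf1-/- and 5.18 to 5.23 on the Igf1+/+ arrays.

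Etv5 was at 9.04, 9.23 and 8.75 in the Igf1-/- lungs and at 8.58, 8.27 and 9.05 in the Igf1+/+ lungs at 1450082_s_at, a probe set of a class that can match further transcripts. At 1420998_at, from the same cDNA, it was at 8.17, 8.34 and 7.92 in the Igf1-/- and 7.75, 7.48 and 8.26 in the Igf1+/+ lungs. At both, Igf1+/+ replicate 3 fell within the range of the Igf1-/- arrays and the other pair of Igf1+/+ arrays lay below all of these. The log2 fold changes were 0.38 ± 0.19 and 0.31 ± 0.19, with 95% intervals of -0.06 to 0.81 and -0.11 to 0.74 and adjusted p of 0.457 and 0.518. Without Igf1+/+ replicate 3 they were 0.58 and 0.53 (adjusted p = 0.113 at both), and without Igf1+/+ replicate 2 they were 0.19 and 0.14 (adjusted p = 0.768 and 0.840).

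Sox2, the factor of the conducting airways, was at 6.77, 6.26 and 6.63 in the Igf1-/- lungs and at 6.61, 6.59 and 5.72 in the Igf1+/+ lungs (1416967_at). Its mean over the arrays was rather dim, at the 44.0th percentile of all mouse probe sets. The lowest value was that of Igf1+/+ replicate 3, and the other 5 arrays lay between 6.26 and 6.77. The log2 fold change was 0.24 ± 0.23, with a 95% interval of -0.28 to 0.77 and an adjusted p of 0.688, and without Igf1+/+ replicate 3 it turned to -0.05. The 3 genes nearest to its profile, of 7041 candidates, were Meig1 (root mean square difference 0.102), Kcne2 (0.126), a potassium channel subunit, and Drc1 (0.156), a part of the ciliary axoneme. All 3 were lowest on Igf1+/+ replicate 3, at 6.46, 6.37 and 6.82, where the other 5 arrays lay at or above 6.88, 6.92 and 7.32. These genes were picked for a profile near that of Sox2, which is lowest on that array. Their low values there therefore follow from the choice and are no separate result.

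Sox2-positive airway progenitors also give rise to ciliated cells, and the ciliated genes were read beside it. All 6 ciliated genes measured had positive log2 fold changes and genotypes that did not overlap, with a median of 0.43, and none rose at an adjusted p under 0.10, although all 6 had an unadjusted p under 0.05. Among 12393 named genes, 1479 were higher without overlap and 873 were higher with an unadjusted p under 0.05. Tppp3, a microtubule protein of ciliated cells, was at 10.21, 10.14 and 10.30 in the Igf1-/- and 9.82, 9.85 and 9.56 in the Igf1+/+ lungs (adjusted p = 0.107), and Rsph1, a part of the axonemal radial spoke, was at 8.86, 8.68 and 8.87 against 8.29, 8.67 and 8.06 (adjusted p = 0.248). The mean of the 6 genes was lowest on Igf1+/+ replicate 3 (7.49), and 4 of the 6 were lowest there.

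**Figure D3:**
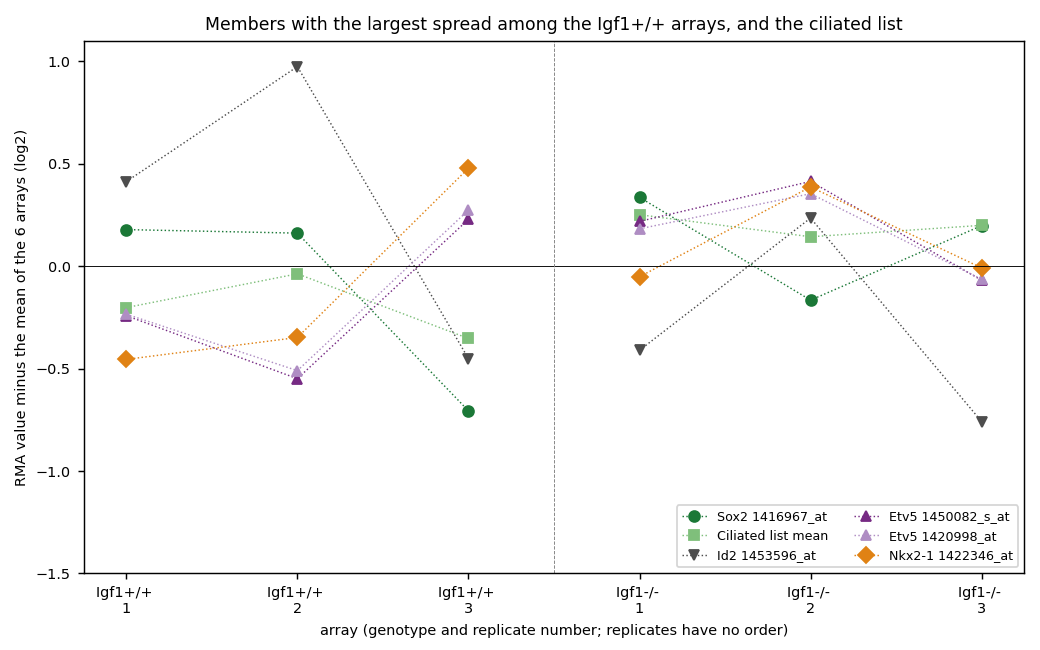
RMA value minus the mean of the 6 arrays (log2, vertical axis) on each array for Sox2, Nkx2-1, both Etv5 probe sets, the Id2 probe set 1453596_at and the mean of 6 ciliated genes. Igf1+/+ replicate 3 is lowest for Sox2 and the ciliated mean and highest for Nkx2-1, and dotted lines only join the arrays of a genotype.

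Igf1+/+ replicate 3 lay far from the other Igf1+/+ arrays for several of these factors. It lay 0.88 above the mean of the other pair of Igf1+/+ arrays for Nkx2-1, 0.62 and 0.65 above for Etv5, and below it by -0.88 for Sox2 and by -1.14 for the Id2 probe set 1453596_at. These differences ranked, by size, at the 98.9th to 99.9th percentile of all mouse probe sets. For Foxa1, Cebpa and the Id2 probe set 1422537_a_at the difference was 0.00, 0.05 and -0.03. A lack of overlap favours Igf1+/+ arrays that agree, so these small differences follow in part from the choice of probe sets. For the remaining probe sets it lay between -0.28 (Id2 1435176_a_at) and 0.27 (Gata6 1425464_at). Igf1+/+ replicate 3 deviated from its group mean with an SD of 0.154 over all probe sets, against 0.113 to 0.129 for the others. It was also the Igf1+/+ array with the high Eif2s3y value. The other array with a high Eif2s3y value, Igf1-/- replicate 1, was at 6.72 for Nkx2-1 and 6.77 for Sox2, the lowest and the highest of the Igf1-/- arrays. With sex as a block, in which these 2 arrays were taken as male, none of the 14 probe sets was called. That assignment is doubtful for Igf1-/- replicate 1, whose Xist value lay between those of the other arrays. The part of sex in the values of Igf1+/+ replicate 3 was not tested.

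Other transcription factors of the lung included clearer differences. Of 37 such genes measured, 1 rose and none fell, with a median log2 fold change of -0.01. The gene that rose was Nfib, a nuclear factor I gene needed for lung maturation. It was at 10.71, 10.62 and 10.69 in the Igf1-/- and 10.24, 10.30 and 10.08 in the Igf1+/+ lungs at 1438244_at, a fold of 1.38 with an adjusted p of 0.0794. Its other 3 probe sets had log2 fold changes of 0.05, -0.03 and 0.20 and were not called. The call of 1438244_at was lost in 8 of 14 alternatives, among them the omission of each array other than Igf1+/+ replicate 3. Klf4 was at 9.56, 9.38 and 9.28 in the Igf1-/- and 10.32, 10.43 and 9.81 in the Igf1+/+ lungs (adjusted p = 0.106), and Rarb, a retinoic acid receptor, differed by 0.31 on the log2 scale (adjusted p = 0.185). Among 10 Krüppel-like factors, Klf2 and Klf6 fell and none rose. Klf2, which is expressed in endothelium and needed for late lung development, was at 9.36, 9.33 and 9.23 in the Igf1-/- and 10.29, 10.44 and 10.37 in the Igf1+/+ lungs, a fall by 1.07 on the log2 scale (adjusted p = 0.0016). It kept its call in 13 of 14 alternatives. Klf6 fell by 0.59 (adjusted p = 0.0643) and lost its call in 6 of 14 alternatives, among them the omission of each array other than Igf1+/+ replicate 3.

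**Figure D4:**
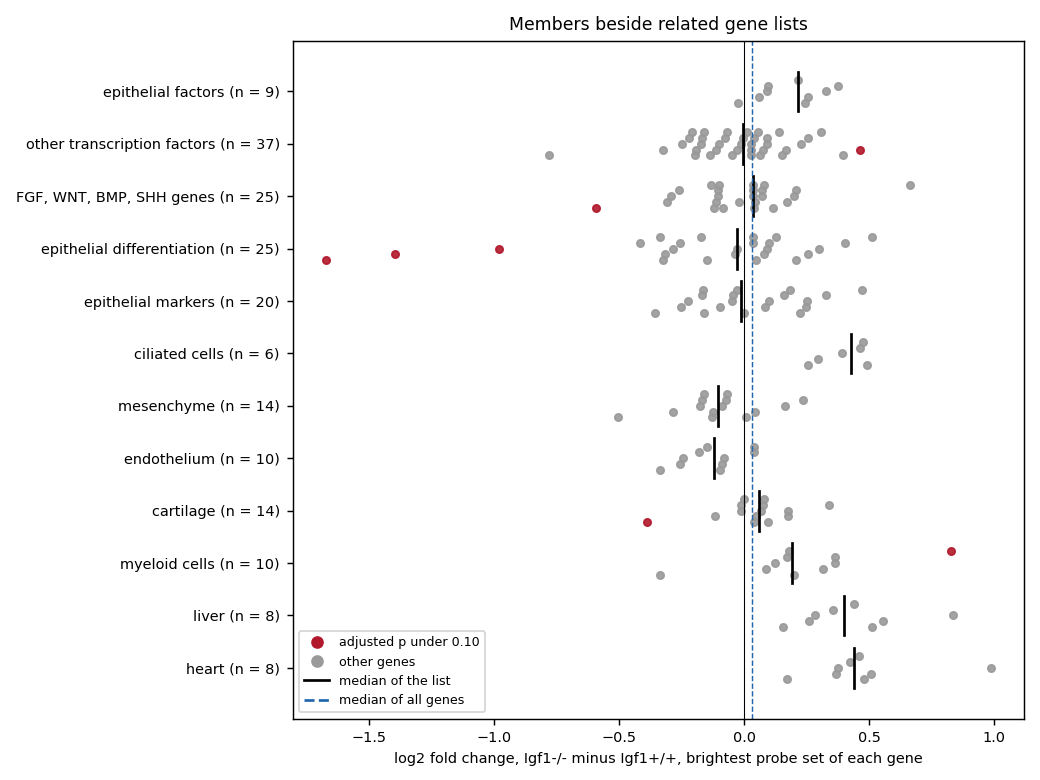
Log2 fold change (Igf1-/- minus Igf1+/+, horizontal axis) of the brightest probe set of each gene in the 9 factors and in 11 related gene lists, with genes at an adjusted p under 0.10 in red, a black line at the median of each list and a dashed line at the median of 12393 genes. The 9 factors have a median of 0.22 and no red point.

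Most of the signals that act on these factors were not called. Of 25 FGF, WNT, BMP, hedgehog and Notch genes measured, 1 fell and none rose. At an unadjusted p under 0.05, 1 was higher and 3 were lower, beside 873 and 701 of 12393 named genes. The genotypes did not overlap at 3 that were higher and 3 that were lower, beside 1479 and 848 of the named genes. The gene that fell was Wnt7a, a WNT ligand, at 6.05, 5.99 and 5.99 in the Igf1-/- and 6.66, 6.61 and 6.54 in the Igf1+/+ lungs (log2 fold change -0.59, adjusted p = 0.0173). Gli1, a target and effector of hedgehog signalling, was at 7.34, 6.81 and 7.38 in the Igf1-/- and 6.37, 6.43 and 6.74 in the Igf1+/+ lungs, a difference of 0.66 (adjusted p = 0.156). Spry1, a feedback inhibitor of FGF receptor signalling, was at 9.57, 9.63 and 9.58 in the Igf1-/- and 10.02, 9.78 and 9.84 in the Igf1+/+ lungs (log2 fold change -0.29, adjusted p = 0.228). Its values did not overlap and had the opposite sign to those of Etv5, which FGF signalling also induces. Wnt7a kept its call in 12 of 13 alternatives and lost it without moderation of the variance.

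Genes of epithelial differentiation, many of them targets of these factors, were divided. Of 25 measured, 3 fell and none rose, 7 were lower and 5 higher at an unadjusted p under 0.05, and the median log2 fold change was -0.03. Among 12393 named genes, 56 fell and 18 rose, and 701 were lower and 873 higher at that unadjusted level. Rtkn2 and Aqp5, both of type I cells, fell by 1.67 and by 0.98 on the log2 scale (adjusted p = 0.0382 and 0.0173), and Scgb3a1, a secretoglobin of airway secretory cells, fell by 1.40 (adjusted p = 0.0161). Scgb3a1 was at 7.88, 7.74 and 7.95 in the Igf1-/- and 9.36, 9.56 and 8.83 in the Igf1+/+ lungs. Aqp5 was at 9.01, 8.99 and 8.57 in the Igf1-/- and 9.90, 9.85 and 9.76 in the Igf1+/+ lungs. Rtkn2 was at 6.47, 7.27 and 6.47 in the Igf1-/- and 8.70, 7.96 and 8.55 in the Igf1+/+ lungs. Among the 14 probe sets of the factors the largest log2 fold change by size was the -0.62 of the Id2 probe set 1453596_at, which was not called and depended on single arrays as given above. Among the genes that were higher, named after their values were seen, Cyp2f2, an enzyme of club cells, was at 11.32, 11.04 and 11.01 in the Igf1-/- and 10.72, 10.52 and 10.61 in the Igf1+/+ lungs (adjusted p = 0.106). Napsa, a protease that processes surfactant proteins, differed by 0.41, and the genotypes did not overlap (adjusted p = 0.214). Sftpb, a surfactant protein, differed by 0.30 with overlap (adjusted p = 0.363). Scgb3a1 and Aqp5 kept their calls in 13 of 14 alternatives each, and Rtkn2 in 10 of 14, losing it when Igf1-/- replicate 1, replicate 3 of that genotype or Igf1+/+ replicate 1 was left out, and without moderation.

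The markers of other cell types were counted in the same way. Among 12393 named genes, 7508 were higher and 4885 lower, 873 and 701 of them at an unadjusted p under 0.05. Without overlap, 1479 were higher and 848 lower. Of 14 mesenchymal genes measured 10 were lower and of 10 endothelial genes 8 were lower, and none of either rose or fell, with 2 mesenchymal and 3 endothelial genes lower at an unadjusted p under 0.05. Col3a1, a collagen and the brightest of the mesenchymal genes, was at 12.81 ± 0.07 in Igf1-/- and 12.77 ± 0.02 in Igf1+/+ lungs. Vim, an intermediate filament of mesenchyme, was at 12.67 ± 0.05 in Igf1-/- and 12.74 ± 0.13 in Igf1+/+ lungs, and Cldn5, a junction protein of endothelium, at 11.02 ± 0.27 and 11.20 ± 0.04. Icam2, an adhesion molecule of endothelium, was at 10.34, 10.50 and 10.02 in the Igf1-/- and 10.81, 10.51 and 10.56 in the Igf1+/+ lungs, without overlap (adjusted p = 0.348). The mean of the mesenchymal genes was 10.33 to 10.48 on the Igf1-/- and 10.45 to 10.53 on the Igf1+/+ arrays, and that of the endothelial genes was 9.75 to 9.96 and 9.89 to 10.08. Of 10 myeloid genes measured 9 were higher, 5 of them at an unadjusted p under 0.05 and without overlap, and the mean of the list was 7.14 to 7.33 on the Igf1-/- and 6.98 to 7.02 on the Igf1+/+ arrays, which did not overlap. The 1 myeloid gene that rose was Camp, an antimicrobial peptide of neutrophils (log2 fold change 0.83), named after its values were seen, and Csf1r, the receptor of macrophage growth factor, differed by 0.32 (adjusted p = 0.232). Lyz2, the brightest of the list, was the 1 gene that was lower (log2 fold change -0.33, adjusted p = 0.466). This gene was also counted among the genes of epithelial differentiation. Sox2 is also expressed in oesophagus and glia and Nkx2-1 in thyroid, and of 7 oesophageal, 7 glial or neural and 6 thyroid or thymic genes measured none rose or fell, with 1 higher at an unadjusted p under 0.05 in each list. The mean of the thyroid and thymic genes was 4.83 to 4.88 on the Igf1-/- and 4.69 to 4.79 on the Igf1+/+ arrays, which did not overlap. That of the oesophageal genes was 5.37 to 5.42 and 5.20 to 5.36. Both lists were dim, with means below the array medians of 6.85 to 6.89. All 6 thyroid or thymic genes were higher in Igf1-/- lungs, as were 6 of the 7 oesophageal and 5 of the 7 glial or neural genes. Of 8 heart genes all were higher and none rose, with a mean of 8.68 on Igf1-/- replicate 3 and 7.30 to 7.50 on the other arrays. The part of these cells in the values of the 9 factors was not tested.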

How the data were processed

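Labels gave the genotype and replicate number of each array. The deposited values are log2 expression values, made by the authors with RMA over 12 arrays (these 6 and 6 cochlear ones), its version not given in the sources used here. Cochlear arrays and scans were not used here, and RMA was not repeated, so the cochlear arrays bear on the quantile step and on the summary of each probe set. Of 22690 rows, 64 control rows were left out. Of 22626 mouse probe sets, 20380 had 1 gene symbol in the platform annotation, 691 several and 1555 none, and 20351 of these symbols were found in RefSeq (GRCm38.p6), which also gave the promoter windows. The table holds 0 columns of other samples.

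Genotype was the only term of a linear model fitted with limma 3.58.1 in R 4.3.3, with empirical Bayes moderation and Benjamini-Hochberg adjustment over all mouse probe sets. A gene rose or fell at an adjusted p under 0.10. The methods' levels of 0.10 and 0.20 were kept, while their SAM statistic was not run. Intervals are 95% intervals of the moderated statistic. Where 1 probe set stood for a gene, the one with the highest mean was used. The fit was tested on simulated data. The 9 factors, the gene lists and the markers were chosen with earlier results of these data known. Named genes are all members, the genes of 3 lists (other factors, signals, differentiation) past an adjusted p of 0.10 or, to reach 3, those of lowest p, with Nfib and Klf2, up to 2 brightest genes of each marker list, and the 3 nearest profiles, among genes with a mean above the median, of the 2 probe sets with the largest SD. Klf6, Hapln1, Tat, Camp, Krt18, Cldn7, Cyp2f2, Napsa, Sftpb, Nppa, Eif2s3y and Xist were named after their values were seen. Alternatives were a replicate block, quantile normalization, median centring, a filter on dim probe sets, a variance trend with robust estimates, array weights, no moderation, other thresholds, each array left out and, added after seeing the data, a sex block. The number of arrays limits the precision.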

Additional observations from a re-analysis of the deposited data

How the results depend on the processing

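No alternative brought any of the 14 probe sets past an adjusted p of 0.10. Past 0.20, a level combined with the alternatives after seeing the data, there were 7 without Igf1+/+ replicate 3 (12.8% of all probe sets), 5 with array weights (10.3%), 1 with quantile normalization (2.28%), 1 with the replicate block (1.81%) and none in the others. Of 192 recomputed log2 fold changes 186 kept their direction. The other 6 changed sign, all at values near 0. Gata6 at 1425464_at was at 0.0046 after quantile normalization, at 0.039 with array weights and at -0.089 to 0.067 with arrays left out. Gata6 at 1425463_at ran from -0.029 to 0.040 with arrays left out, negative without Igf1-/- replicate 3 (-0.0049) and without Igf1+/+ replicate 2 (-0.029). Sox2 ran from -0.047 to 0.40 and was negative without Igf1+/+ replicate 3. With dim probe sets left out, Nkx2-1, Sox2, Sox9 at 1424950_at and Id2 at 1453596_at had no value. The count over all mouse probe sets, 126, was 204 with a variance trend, 628 with array weights, 1 without moderation, 588 at 0.20 and 54 at 0.05, and 45 to 710 with arrays left out, where 710 was without Igf1+/+ replicate 3 and 45 without Igf1-/- replicate 3. The cause was not tested. Replicate numbers gave correlations of deviations of -0.04, -0.23 and -0.14, so they did not pair the arrays. With the replicate number as a block 138 probe sets were called, none of the 14 among them, Id2 at 1453596_at had an adjusted p of 0.120 and Nfib lost its call. The sex block, chosen after seeing the data, gave 121. The 95% intervals of the 14 probe sets differ in width and reach from -1.41 to 0.81 in all.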
